A study of Mus musculus with 14 samples.

Results

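Transcripts bound by Igf2bp3 were compared between Lin28a+ and control muscle stem cells (MuSCs) in 4 of the 14 libraries of the series, 2 Igf2bp3-RIP libraries from each group. The libraries were assigned to the groups by their labels. The comparison itself was chosen with earlier results of these data known, and the pairing by replicate number used in its model comes from measured values. In RNA immunoprecipitation sequencing (RIP-seq), an antibody recovers a protein together with the RNA it holds, and that RNA is sequenced, and stretches of transcript where reads pile up are called peaks. The deposited table holds read counts for 19465 peaks, which the submitters assigned to 4527 genes, and both the peaks and the sums per gene were tested. The control and Lin28a+ samples are described as muscle stem cells of mouse skeletal muscle, grown on Matrigel in serum-containing medium, and differ in the labels only by a genotype of Control or Lin28a positive. Lin28a+ MuSCs were sorted by the study from Lin28a-CreERT2; LSL-tdTomato mice, in which tamoxifen-activated Cre marks cells that use the Lin28a promoter. Strain, age, sex and the source of the control cells were not given in the sources used here. The labels do not say whether the 2 replicates of a group come from separate animals or cultures, so p-values measure only the spread between these samples, which may be technical.

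Igf2bp3 is an RNA-binding protein of the insulin-like growth factor 2 mRNA-binding family. It is abundant in the embryo and scarce in most adult tissues, binds transcripts through its KH and RRM domains, prefers many m6A-modified mRNAs and is known for keeping bound mRNAs from decay, also in stress granules. Lin28a is another oncofetal RNA-binding protein, known for blocking the maturation of let-7 miRNAs and for binding mRNAs directly. The comparison asks which transcripts are recovered with Igf2bp3 to a different extent when MuSCs carry Lin28a. A RIP count rises both when more of a transcript is bound and when more of that transcript is present, so input RNA changes are given for some of the named genes, and input and m6A-RIP calls are counted over the called genes at the end. The study reports more Igf2bp3 protein in Lin28a+ MuSCs by Western blot, and its part in the counts was not tested. Scaling between libraries treats most genes as unchanged, so a general rise or fall in recovery cannot be seen. Higher and lower are therefore relative to the other genes. In these bulk samples a smaller number of cells of a kind and less RNA per cell cannot be told apart.

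The libraries held 9215355 and 27592959 counts in control replicates 1 and 2, and 12617254 and 34142094 counts in Lin28a+ replicates 1 and 2. In the input, 13 myogenic markers summed to 15847 and 16114 CPM (counts scaled to a common library size) in control and 14873 and 15047 CPM in Lin28a+ cells, with 3 markers higher and 8 lower in Lin28a+ cells. Pax7 and Myod1, which define muscle stem cells and myoblasts, were present in both groups. Myog, which marks differentiating myoblasts, was 766 and 775 CPM in control against 2769 and 2809 CPM in Lin28a+ cells, while Megf10, Vcam1 and Myf5 had log2 changes of -2.21, -1.93 and -1.21. The one macrophage marker tested summed to 1.29 to 3.27 CPM. The endothelial sum, which held 2 of 13 markers, was 13.9 and 13.5 CPM in control against 55.6 and 53.2 CPM in Lin28a+ cells. Of these, Selp was higher and Eng lower, and Cdh5, Kdr and Tek were not listed. The fibro-adipogenic sum over 3 markers was 154 and 159 CPM in control against 79.2 and 78.7 CPM in Lin28a+ cells, with Gsn and Smoc2 lower and Ly6a higher. The pericyte or smooth muscle sum over 8 markers was 7591 and 7606 CPM in control against 8975 and 8955 CPM in Lin28a+ cells, with 4 markers higher and 4 lower. That sum was mostly Acta2, at 5438 and 5401 CPM against 7439 and 7421 CPM, while Tagln was 285 and 293 CPM against 77.2 and 75.4 CPM. The tenocyte sum over 4 markers was 114 and 109 CPM against 149 and 152 CPM, with 2 higher, Scx among them, and Egr1 lower. The Schwann sum over 2 markers was 370 and 369 CPM against 265 CPM in both Lin28a+ columns, with Ncam1 lower and Erbb3 higher. The part of these shifts in the RIP differences was not tested. Lin28a itself was not analysed here.

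Replicate numbers 1 and 2 differed in the same way in both groups. Across genes, the replicate 2 minus replicate 1 difference of control correlated with that of Lin28a+ cells at r = 0.695 over 4527 genes, and across peaks at r = 0.703 over 19465 peaks, as a description, since genes and peaks of one library share its depth and composition. The difference between replicate numbers passed an edgeR adjusted p under 0.05 for 764 genes (16.9%), of which 377 (8.33%) were higher and 387 (8.55%) lower in replicate 2, and for 5860 peaks (30.1%). The replicate number was therefore kept in the model as a block, as set for this comparison, although no label ties a replicate number to a shared day or batch. The Lin28a+ minus control difference correlated between replicate 1 and replicate 2 at r = 0.669 over genes.

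**Figure D1:**
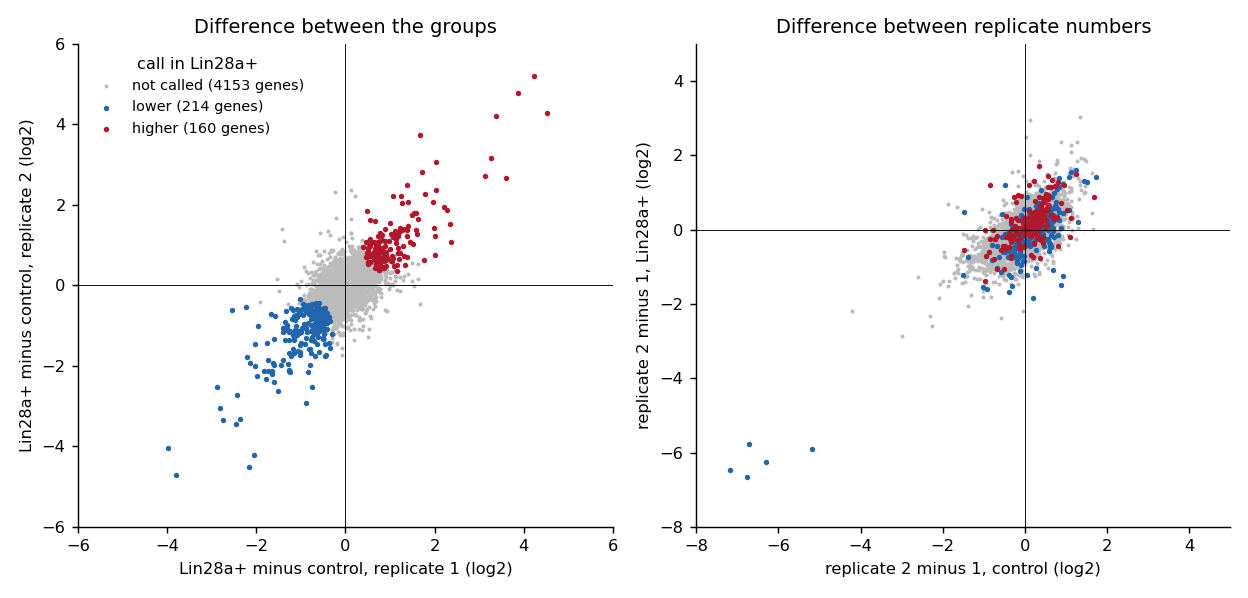
Each point is a gene on the log2(CPM + 1) scale. Left, the Lin28a+ minus control difference in replicate 1 (x axis) against replicate 2 (y axis), coloured by the call with the replicate block; the 160 higher and 214 lower genes lie at the upper right and lower left. Right, the replicate 2 minus replicate 1 difference in control (x axis) against Lin28a+ cells (y axis), where most points follow the diagonal and 5 genes lie at the far lower left.

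A group of 5 peaks carried the most extreme difference between replicate numbers. They were assigned to Slc25a33, Kpna1, Lrch3, Itga9 and Arhgef26, lie in the assigned gene for Lrch3 and Itga9 only, with the Lrch3 peak also over the rRNA gene n-R5s33, are 380 to 473 bases wide, and were more than 5 log2 units higher in replicate 1 of both groups. Together they took 3.36% of the counts in control replicate 1 and 1.27% in Lin28a+ replicate 1, against 0.0336% and 0.0153% in the second replicates. The largest, in Itga9 at chr9:118674788-118675167 (mm10, as all positions here), held 126627 and 3313 counts in control and 45444 and 2051 counts in Lin28a+ cells. All 5 genes were called lower in Lin28a+ cells with the block, although the replicate 1 value of Lin28a+ cells lay far above the replicate 2 value of control. Their direction therefore holds only within a replicate number, and it turned to higher when control replicate 1 was left out of a fit with no block. Without these 5 peaks the test called 341 genes and 1688 peaks.

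With the block, 374 of 4527 genes (8.26%) passed an edgeR quasi-likelihood adjusted p under 0.05, of which 160 (3.53%) were higher and 214 (4.73%) lower in Lin28a+ cells. Among them, 67 rose and 98 fell by more than 2-fold. Scaled by total counts only, the blocked test called 286 genes higher and 267 lower. The coefficient of variation left between libraries was 13.8% with the block and 25.4% without it. Without the replicate block 13 genes (0.287%) were called, 6 higher (0.133%) and 7 lower (0.155%), and all 13 were among the 374. The direction of the group difference was the same in both replicate numbers for all 374 called genes, beside 68.3% of all genes. The blocked test calls genes on agreement within replicate numbers, so this count is a description. For 346 of the called genes the 2 control values and the 2 Lin28a+ values did not overlap, whereas the groups did not overlap for 38.2% of all genes, 18.5% with Lin28a+ cells higher and 19.7% with them lower. The median log2 fold change of called genes was 0.91 for the higher and -0.96 for the lower ones, and that of all genes was -0.01.

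Genes that rose most clearly in the Igf2bp3-RIP of Lin28a+ cells included Selp, Tfpi, Pmp22, Fndc3c1 and Dio2. Selp, the adhesion receptor P-selectin, had 3.17 and 2.59 CPM in control against 78.0 and 131 CPM in Lin28a+ cells. The log2 fold change of Selp was 5.23 ± 0.27 (SE, n = 2 per group), and all values of Lin28a+ cells exceeded those of control. Tfpi, an inhibitor of the coagulation pathway started by tissue factor, had 5.49 and 3.70 CPM in control against 66.8 and 85.9 CPM in Lin28a+ cells, a log2 fold change of 4.11 ± 0.25 (SE). Pmp22, a membrane protein of peripheral myelin, rose from 3.06 and 3.66 to 48.6 and 28.7 CPM. Tfpi and Pmp22 were also higher in the input RNA, with log2 changes of 3.45 for Tfpi and 2.90 for Pmp22.

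Fndc3c1, a fibronectin type III domain protein encoded on the X chromosome, had 37.6 and 45.6 CPM in control against 336 and 303 CPM in Lin28a+ cells. Its log2 fold change was 2.94 ± 0.17 (SE), and each of its 13 peaks was called higher, with values from 2.62 to 3.36, while its input RNA rose by 1.96 on the log2 scale. Dio2, the deiodinase that makes active thyroid hormone, was the most abundant of the 8 rising genes plotted and had 283 and 219 CPM in control against 1099 and 925 CPM in Lin28a+ cells, a log2 fold change of 2.02 ± 0.16 (SE). The transcript of Igf2bp3 itself was recovered more with Igf2bp3 from Lin28a+ cells, at 41.1 and 40.3 CPM against 14.9 and 14.0 CPM in control, with a log2 fold change of 1.50 ± 0.19 (SE) and an edgeR adjusted p of 9.87e-04 that was 0.101 without the block. Both Igf2bp3 peaks also lie in the RefSeq span of Malsu1, so reads of these genes may not be separable.

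Genes that fell included Col1a2, Gria3, Stag2, Spp1 and Vav3. Col1a2, a chain of type I collagen, had 60.0 and 90.9 CPM in control against 3.38 and 2.47 CPM in Lin28a+ cells, and its log2 fold change of -4.73 ± 0.27 (SE) was the lowest of all genes. Gria3, a glutamate receptor subunit, had 47.1 and 62.2 CPM in control against 2.03 and 2.84 CPM in Lin28a+ cells, and each of its 6 peaks was called lower. Stag2, a subunit of the cohesin ring that holds sister chromatids together, was far more abundant, with 437 and 387 CPM in control against 63.8 and 37.3 CPM in Lin28a+ cells. The log2 fold change of Stag2 was -3.08 ± 0.18 (SE), and each of its 17 peaks was called lower, with values between -3.59 and -2.73. The input RNA of Gria3 had a log2 change of -6.23.

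Spp1, the secreted matrix protein osteopontin, had 251 and 831 CPM in control against 45.7 and 124 CPM in Lin28a+ cells. The replicates of Spp1 differed by more than 2-fold within each group, yet the groups did not overlap, and the edgeR adjusted p of 4.43e-06 with the block was 0.340 without it. Vav3, an exchange factor for small GTPases, had 165 and 134 CPM in control against 45.5 and 29.9 CPM in Lin28a+ cells, with each of its 9 peaks lower. The input log2 changes were -3.87 for Spp1 and -2.21 for Vav3. The low-abundance gene Pclo, a scaffold of the presynaptic zone, fell by 3.15 on the log2 scale, and had 2.40 and 1.96 CPM in Lin28a+ cells. Gm6093 had 165 and 137 CPM in control against 39.3 and 33.0 CPM in Lin28a+ cells.

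**Figure D2:**
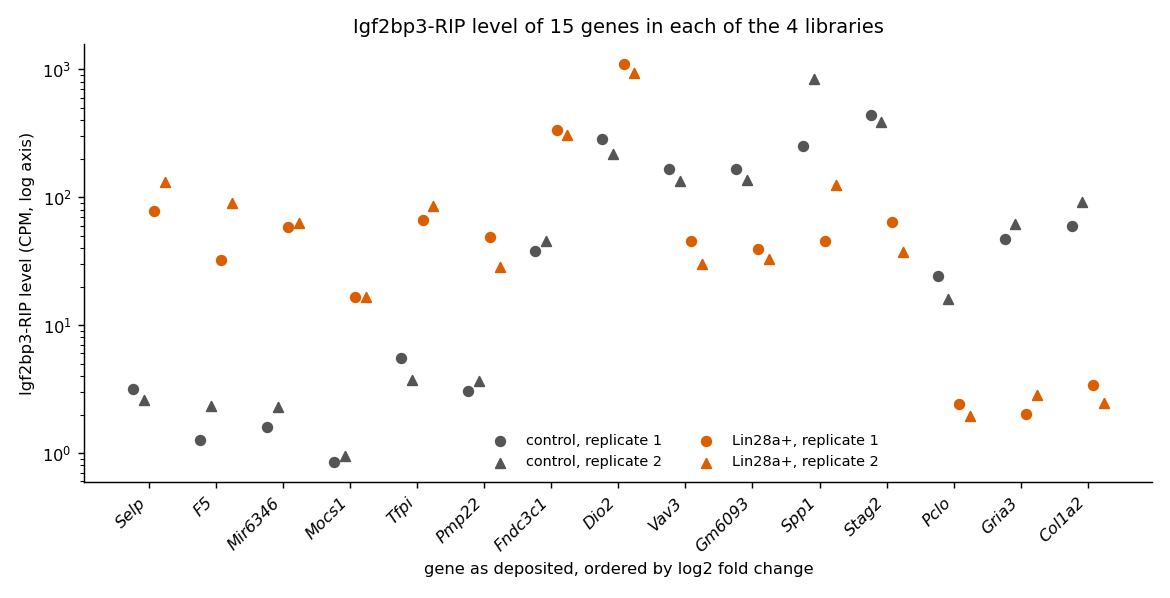
Igf2bp3-RIP level in CPM (log axis) of 8 rising and 7 falling genes that ranked first by p without overlap between the groups, as assigned in the deposited table. Grey marks are control and orange marks Lin28a+ libraries, circles replicate 1 and triangles replicate 2, and the grey and orange marks are separate for all 15 genes.

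Several leading names do not belong to the transcript at the peak. The 6 peaks assigned to Mir6346, with 1.58 and 2.29 CPM in control against 58.6 and 62.8 CPM in Lin28a+ cells, lie in the RefSeq span of Gli2, a transcription factor of Hedgehog signalling, and outside Mir6346. The peak assigned to F5, with 1.27 and 2.33 CPM in control against 32.2 and 89.8 CPM in Lin28a+ cells, lies in Selp, next to the Selp peaks. Both peaks assigned to Mocs1, at 0.845 and 0.954 CPM in control against 16.7 and 16.5 CPM in Lin28a+ cells, lie in Daam2, a formin of Wnt signalling. Of all peaks, 80.6% overlapped the RefSeq span of the assigned gene, 18.3% lay only in another gene and 1.11% in none, by an overlap of at least 1 base. For 91 of the 374 called genes (24.3%), no peak lay in the assigned gene. Of all 4527 genes, 3395 had a peak in the assigned gene, so the share without one is similar over all genes. Such pairs include Col14a1 with 9 lower peaks in Deptor, Pold2 with 1 lower peak in Aebp1, and Anxa3 with 4 lower peaks in Fras1. When only peaks within the span of the assigned gene were summed, a choice made after seeing the data, 496 of 3395 genes were called, 202 higher and 294 lower.

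At the level of peaks, 1988 of 19465 (10.2%) passed with the block, 766 (3.94%) higher and 1222 (6.28%) lower, whereas 24 (0.123%) passed without the replicate block, 12 in each direction (0.0616%), all of them among the 1988. DESeq2 with the same block called 754 peaks, 261 higher and 493 lower, and with at least 100 counts in every library edgeR called 721, 236 higher and 485 lower. The direction was the same in both replicate numbers for 1959 called peaks, beside 64.8% of all peaks, which for the same reason is a description, and 1631 did not overlap between the groups, beside 31.8% of all peaks. The peak fit took the spread between libraries as known from its trend with abundance, so a peak whose own replicates disagree can still be called, and single peaks were read with their counts. One such peak, in Sumo2 at chr11:115530356-115530561, was called lower with 425 and 1889 counts in control and 21 and 6041 counts in Lin28a+ cells, where the difference was -4.16 in replicate 1 and 1.32 in replicate 2 on the log2(CPM + 1) scale.

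The rising peak with the smallest p stood outside any RefSeq gene, at chr11:79873257-79873960 of mm10, and was assigned to Utp6, a ribosome biogenesis factor. It held 5 and 0 counts in control and 860 and 869 counts in Lin28a+ cells, or 0.550 and 0 CPM against 68.4 and 24.9 CPM, and its fitted change of 7.97 on the log2 scale rests on the 5 control counts. The other 8 peaks of Utp6 lie inside the gene and changed by 0.18 to 0.34, none of them called. The 2 peaks of Selp, at chr1:164149016-164149300 and chr1:164128023-164128336, held 27 and 41 and 3 and 27 counts in control, and 740 and 2395 and 299 and 1956 counts in Lin28a+ cells. The falling peaks with the smallest p lay in Col1a2 (chr6:4540383-4540850), Stag2 (chrX:42275093-42276141), Col18a1 (chr10:77052576-77052776) and Cdh11 (chr8:102634321-102634977). The Col1a2 peak held 308 and 1149 counts in control and 22 and 30 counts in Lin28a+ cells, and the Stag2 peak 659 and 1285 against 91 and 162 counts. In each of these 4 peaks both Lin28a+ CPM values lay below both control values.

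Peaks of one gene mostly moved together. Of 3137 genes with 2 or more peaks, 60.1% had all peaks on one side of zero, and this held for 115 of 117 such genes called higher and 133 of 139 called lower. Since a gene's call is built from its peaks, these shares are descriptions. Unequal change among the peaks of a gene was called for 4 of 3137 genes (0.128%), Utp6, Gtf2a1, Strbp and Pitpnb, and 91 genes had an unadjusted p under 0.05. Gphb5 and Ckap5 came next and were not called (edgeR adjusted p = 0.0598 for both). All of these 4 genes had peaks outside their own span. In Gtf2a1, a subunit of the general transcription factor TFIIA, the 6 peaks inside the gene changed by 0.12 to 0.43 and none was called, and the 8 peaks lying in Ston2 changed by -1.66 to -1.14 and all were lower. In Pitpnb the 3 peaks inside the gene changed by 0.23 to 0.39, while the 5 peaks in Ttc28 changed by -1.33 to -1.11. In Strbp, a double-stranded RNA-binding protein, the 4 peaks inside the gene rose by 1.89 to 3.68 and the peak in Rabgap1 changed by -0.51. With peaks inside the assigned gene only, 0 of 2369 genes were called by edgeR, limma-voom was not run on this choice, and 28 had an unadjusted p under 0.05.

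**Figure D3:**
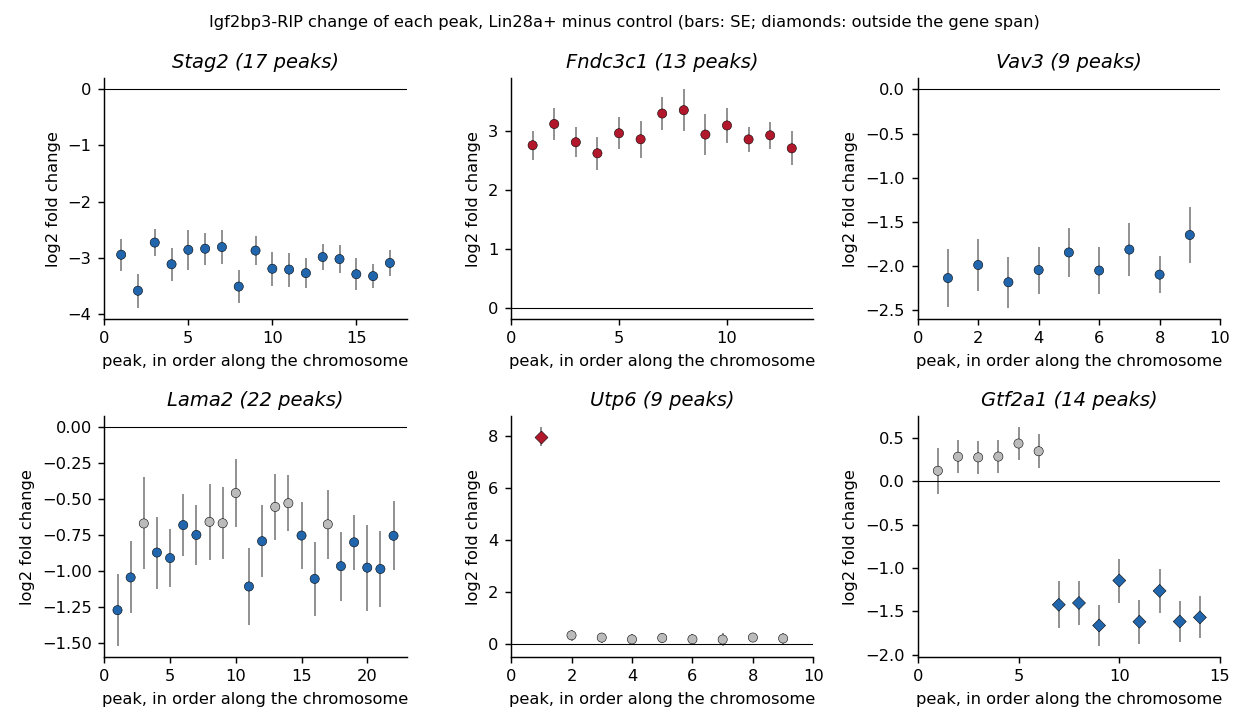
Log2 fold change of each peak with its SE (bars), in order along the chromosome, for 6 genes. Red marks were called higher, blue marks lower and grey marks not called, circles lie in the span of the assigned gene and diamonds outside it. All peaks of Stag2, Fndc3c1 and Vav3 were called, while in Utp6 and Gtf2a1 the called peaks are the diamonds.

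The position of peaks and their overlap with Lin28a-RIP peaks are given as descriptions. Among 12572 peaks inside their gene with a known strand, 42.7% of 431 higher peaks lay within 5 kb of the annotated 3′ end of the gene, against 27.4% of 748 lower and 28.2% of 11393 peaks not called. That share depends on the length of the gene, and the median gene span was 59.5 kb for the higher, 104 kb for the lower and 69.7 kb for the peaks not called. As a share of gene length from the 5′ end, the median position was 83.7% for the higher and 80.0% for the lower peaks, against 74.5% for the peaks not called. Overlap by at least 1 base with a peak of the Lin28a-RIP, which was made from Lin28a+ MuSCs only, was found for 33.7% of the 766 higher peaks, 59.6% of the 1222 lower peaks and 61.7% of the peaks not called. The share of counts was led by H19, a long non-coding RNA that is known to be bound by Igf2bp proteins and holds the miR-675 hairpin. H19 took 5.05% and 6.19% of all counts in control and 10.4% and 7.79% in Lin28a+ cells. Its log2 fold change of 0.65 ± 0.52 (SE) was not called, although the groups did not overlap. Per kb of peak, H19 had 19437 and 25756 CPM in control against 39008 and 31748 CPM in Lin28a+ cells, beside a median of 64.3 CPM per kb over all genes. Next in order among genes with replicates of like level were Hsp90ab1, a chaperone, with 1707 to 3262 CPM per kb over the 4 libraries, Myod1 with 1238 to 3051 and Pabpc1, the poly(A)-binding protein, with 1985 to 2441.

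Peaks overlapped 34 miRNA hairpins, 29 of them wholly, and 3 of these 34 peaks were called, a share near the 10.2% of all peaks. They are shown because a hairpin can be a separate product of the transcript at the peak. These 3 peaks are 201 to 803 bases wide, far longer than a mature miRNA, and do not show whether the miRNA or its host transcript was bound. The peak with Mir5617, at chrX:20862588-20863390 and also within Syn1, had 9.56 and 24.3 CPM in control against 37.4 and 76.2 CPM in Lin28a+ cells and rose by 1.79 on the log2 scale. The peak with Mir7225, at chr3:97690371-97690718 and within Pde4dip, had 53.1 and 79.2 CPM in control against 26.1 and 27.8 CPM in Lin28a+ cells and fell by 1.28. The peak with Mir6935, at chr11:120347321-120347521 and within Actg1, cytoplasmic actin, fell by 0.58, from 457 and 326 CPM to 291 and 230 CPM. The mature sequences below are from RefSeq (GRCm38.p6), all on the minus strand, with the seed (bases 2 to 8) in capitals, and include miR-675 from the H19 peak at chr7:142575588-142578115.
mmu-miR-5617-5p: gUAAGUGAgggcaagccuucugg
mmu-miR-5617-3p: cAGGCGGCcucagcucucacu
mmu-miR-7225-5p: aCGUAGACuguguagaagcc
mmu-miR-7225-3p: cUUCUAGAcagccucugcagca
mmu-miR-6935-3p: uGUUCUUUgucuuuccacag
mmu-miR-675-5p: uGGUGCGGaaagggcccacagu
mmu-miR-675-3p: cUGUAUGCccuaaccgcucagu
No seed is shared among these 7 miRNAs. A total of 442 peaks were assigned to 156 miRNA genes in the table.

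Among DNA repair transcripts, the group the study works on, Bard1 and Mlh3 were higher and Xrcc5 lower in the Igf2bp3-RIP. These are 3 of 63 DNA repair genes tested, or 4.76% beside 8.26% of all genes, and 15 of the 63 had an unadjusted p under 0.05, beside 1125 of 4527 genes. With peaks inside the assigned gene only, 6 of 57 were called, 3 in each direction, beside 496 of 3395 genes in all. The list median was a log2 fold change of -0.05, and these counts are not read as a result about DNA repair genes. Bard1, the partner of Brca1 in homologous recombination, had 37.6 and 51.4 CPM in control against 54.0 and 97.7 CPM in Lin28a+ cells, a log2 fold change of 0.73 ± 0.17 (SE) with all of its 4 peaks called higher, and an edgeR adjusted p of 0.0285 that was 0.627 without the block. The mismatch repair gene Mlh3 rose from 6.13 and 1.56 to 10.4 and 6.73 CPM, and Xrcc5, the Ku80 subunit of end joining, fell from 20.5 and 9.61 to 13.1 and 3.86 CPM, each from 1 peak. Of 21 genes taken from the study's list of qPCR primers, which does not say which primers served for RIP-qPCR, Bard1 was called (4.76% beside 8.26% of all genes), and with peaks inside the assigned gene only 2 of 20 were called higher, beside 202 of the 3395 genes. The study may have picked these genes with the RIP data known, so the count is not independent evidence.

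Usp1, the deubiquitinase of the Fanconi anaemia pathway, had 287 and 196 CPM in control against 364 and 318 CPM in Lin28a+ cells. Its log2 fold change of 0.52 ± 0.15 (SE) did not pass (edgeR adjusted p = 0.0575), while 1 of its 3 peaks was called higher. Fancm, the DNA translocase of the same pathway, had 42.0 and 45.3 CPM in control against 30.2 and 30.6 CPM in Lin28a+ cells, a log2 fold change of -0.52 ± 0.17 (SE) with an edgeR adjusted p of 0.0905. None of the 6 Fancm peaks was called. The ubiquitin ligase subunit Fbxw7, with 6 peaks, had a log2 fold change of -0.08 ± 0.16 (SE). Twist2, Igf2bp1 and Igf2 have no peak in the table, and Igf2bp2 had a log2 fold change of 0.23 ± 0.14 (SE).

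Among the 17 process lists, the extracellular matrix list had the highest share of calls. Of 26 genes of fibrillar and basement membrane matrix, 10 were lower and 2 higher, or 46.2% beside 8.26% of all genes, and 1 of them was called without the block. Besides Col1a2 and Spp1, Col18a1 had 182 and 346 CPM in control against 43.0 and 17.7 CPM in Lin28a+ cells. Col5a2, a chain of type V collagen, had 601 and 882 CPM in control against 298 and 394 CPM in Lin28a+ cells, with each of 10 peaks lower. Lama2, the laminin chain of muscle basement membrane, had 346 and 495 CPM in control against 222 and 263 CPM in Lin28a+ cells, with 15 of 22 peaks lower. Fbn1, Thbs1, Col5a1 and Timp3 were also lower, and so were the peaks assigned to Col14a1, which lie in Deptor. Of 39 genes of this list tested in the input RNA, 25 were lower and 10 higher, beside 28.7% lower and 28.1% higher of all input genes. The type IV collagens of the basement membrane went the other way, Col4a1 from 221 and 268 to 466 and 621 CPM and Col4a2 from 164 and 246 to 290 and 540 CPM.

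Adhesion and cytoskeletal genes and muscle genes were called lower more often than higher. Of 34 giant cytoskeletal and adhesion transcripts, 9 were lower and 0 higher (26.5% beside 8.26% of all genes), and their median was -0.46. With peaks inside the assigned gene only, 14 of 34 were lower, beside 294 of 3395 genes in all. In the input RNA, 27 of 39 giant transcripts tested were lower and 4 higher, beside the same 28.7% and 28.1%. Ank3, the membrane anchor ankyrin-G, had 630 and 981 CPM in control against 279 and 327 CPM in Lin28a+ cells, with each of 23 peaks lower, and Cdh11, a cadherin, had 85.3 and 157 CPM in control against 18.3 and 5.88 CPM in Lin28a+ cells. Lrp1, an endocytic receptor, had 1158 and 3161 CPM in control against 619 and 1524 CPM in Lin28a+ cells, so that its groups overlapped while both replicate numbers fell by about the same amount, -0.90 and -1.05. The 9 include Itga9, which rests on the replicate 1 peak described above. Of 16 sarcomere and differentiation genes, 4 were lower and 0 higher (25% beside 8.26%), with Xirp2, an actin-binding protein of the sarcomere, falling by 2.14 on the log2 scale and Myl1, a myosin light chain, falling from 204 and 307 to 117 and 77.6 CPM. In the input RNA, 36 of 55 sarcomere and differentiation genes tested were lower and 15 higher, beside the same 28.7% and 28.1%.

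Of 14 myogenic regulators, 3 were lower and 1 higher (28.6% beside 8.26%). One of the lower members, Eya2, had a log2 fold change of -0.56 from 7 peaks that all lie in Zmynd8, and with peaks inside the assigned gene only 2 of 12 were lower and 1 higher, beside 294 lower and 202 higher of 3395 genes. Myf5 had 361 and 336 CPM in control against 230 and 164 CPM in Lin28a+ cells, with each of 3 peaks lower, and Myod1 had 796 and 691 CPM in control against 598 and 323 CPM in Lin28a+ cells. Eya1, a coactivator in myogenic progenitors, had 161 and 209 CPM in control against 269 and 380 CPM in Lin28a+ cells, with 7 of 8 peaks higher. Of the 6 myogenic markers with a peak, 4 were lower, beside 4.73% of all genes, among them Megf10, a receptor of satellite cells that acts with Notch, which fell by 1.19, and Vcam1, which fell by 2.27 on the log2 scale.

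In the TGF-beta and BMP list, 2 of 23 genes were higher and 2 lower (17.4% beside 8.26% of all genes): Inhba, the activin A subunit, rose from 5.18 and 4.77 to 24.5 and 47.0 CPM, Fst, the activin-binding follistatin, rose from 24.6 and 19.2 to 78.7 and 62.5 CPM, and Ltbp1 was among the lower genes. In the insulin, PI3K and mTOR list, 5 of 34 were lower and 0 higher (14.7%), and the list median was 0.02. Of 53 genes of this list tested in the input RNA, 30 were lower and 12 higher, beside 28.7% lower and 28.1% higher of all input genes. Deptor, an inhibitor of mTOR, had 58.1 and 81.1 CPM in control against 16.6 and 17.7 CPM in Lin28a+ cells, and Rasa1, a Ras GTPase-activating protein, fell by 0.96 with each of 22 peaks lower. Mtor itself fell by 0.68 on the log2 scale. Notch1 and Megf10 were the 2 lower genes of 14 in the Notch list (14.3%), and Wnt5b was the 1 lower gene of 21 in the Wnt list (4.76%), although its 8 peaks lie in Erc1 and none in Wnt5b.

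Of 40 mitosis genes, 2 were higher and 0 lower (5% beside 8.26%), Ccna2, cyclin A2, from 335 and 369 to 576 and 509 CPM, and Plk4, the kinase of centriole duplication, from 277 and 319 to 438 and 432 CPM. The median of the mitosis list was 0.21, beside -0.01 over all genes, and in the input RNA 26 of 49 mitosis genes tested were higher and 3 lower, beside 28.1% higher and 28.7% lower of all input genes. None of 73 chromatin modifiers and none of 50 ubiquitin ligases and deubiquitinases was called by edgeR, by DESeq2 or by limma-voom with the block, with 11 and 9 genes at an unadjusted p under 0.05. Of 12 cohesin genes, Stag2 was called. With peaks inside the assigned gene only, 3 of 72 chromatin modifiers, 5 of 50 ubiquitin ligases and deubiquitinases, 3 of 12 cohesin genes, 6 of 40 mitosis genes and 2 of 19 m6A and Igf2bp family genes were called, beside 496 of 3395 genes in all. Without the block, Col1a2, Stag2 and Selp were the list members called. Of 15 known Igf2bp targets, 3 were lower (20% beside 8.26%), Ccnd1, which encodes cyclin D1, by 1.18, Peg10 by 1.64 and Pdpn by 0.52 on the log2 scale, and 5 of 15 were lower with peaks inside the assigned gene only, beside 294 of 3395 genes. In the input RNA, 13 of 18 known targets tested were lower and 2 higher, beside 28.7% lower and 28.1% higher of all input genes. Igf2bp3 was the 1 gene called of 20 in the m6A and Igf2bp family, and Tut4, the terminal uridyltransferase that acts with Lin28a on let-7 precursors, the 1 called of 31 stress granule and decay genes, from 184 and 183 to 263 and 265 CPM.

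**Figure D4:**
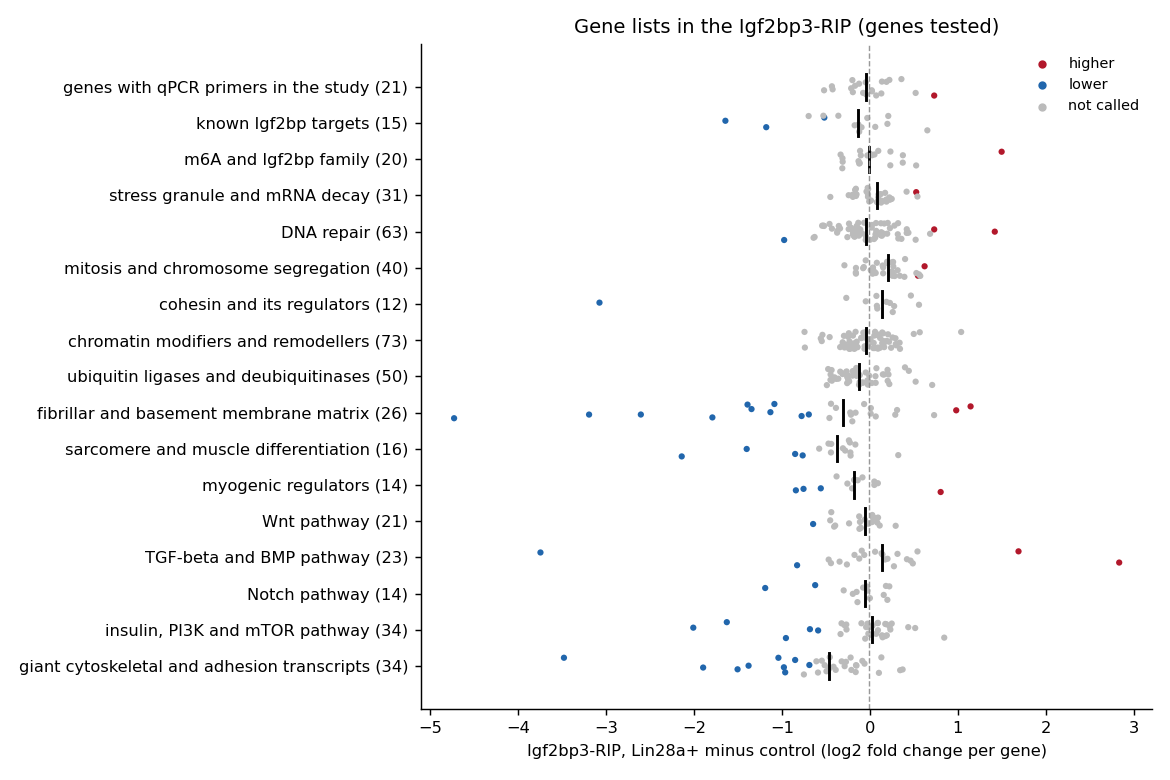
Log2 fold change of the Igf2bp3-RIP (x axis) for each gene of 17 lists, with the number tested in brackets. Red points were called higher, blue points lower and grey points not called, the black bar is the list median and the dashed line the median of all genes. Blue points gather in the matrix and the giant cytoskeletal lists, and the chromatin and ubiquitin lists hold grey points only.

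Most genes that fell in the Igf2bp3-RIP also fell in the input RNA. In the input, 56.8% of 11317 genes were called, 3184 higher and 3248 lower. Of 179 genes lower in the RIP and tested in the input, 148 were lower there (82.7%), 14 higher and 17 not called, beside 45.4% lower among 3424 genes not called in the RIP. Of 113 genes higher in the RIP, 54 were higher in the input (47.8%), 16 lower and 43 not called, beside 15.1% higher among the genes not called in the RIP. Across 3716 genes the RIP and the input changes correlated at r = 0.478 (0.250 by Spearman's rank), and across 3664 genes the RIP and the m6A-RIP changes at r = 0.532 (0.277 by rank), as descriptions over genes. In the m6A-RIP, where 66.3% of 9416 genes were called, 32.5% higher and 33.8% lower, 160 of 179 genes lower in the Igf2bp3-RIP were lower (89.4%) and 68 of 114 higher ones were higher (59.6%), beside 53.8% lower and 16.9% higher among 3371 genes not called in the Igf2bp3-RIP.

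Some large changes were of like size in RIP and RNA, and others were not. Selp changed by 5.23 in the RIP and 5.05 in the input, Col1a2 by -4.73 and -4.71, Stag2 by -3.08 and -3.34, Dio2 by 2.02 and 1.74, and Igf2bp3 by 1.50 and 1.65. Mocs1 changed by 4.17 in the RIP and 0.07 in the input, Pold2 by -3.22 and 1.29, and Anxa3 by -2.11 and -0.07, in each case with peaks that lie in another gene. The Stag2 input was 19.9 and 19.1 CPM in control against 1.77 and 2.04 CPM in Lin28a+ cells. The Igf2bp3 input was 11.6 and 10.6 CPM in control against 35.6 and 33.9 CPM in Lin28a+ cells. For Ccnd1 the log2 change was -1.18 in the RIP and -2.94 in the input, but the difference between RIP and input was not tested.

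**Figure D5:**
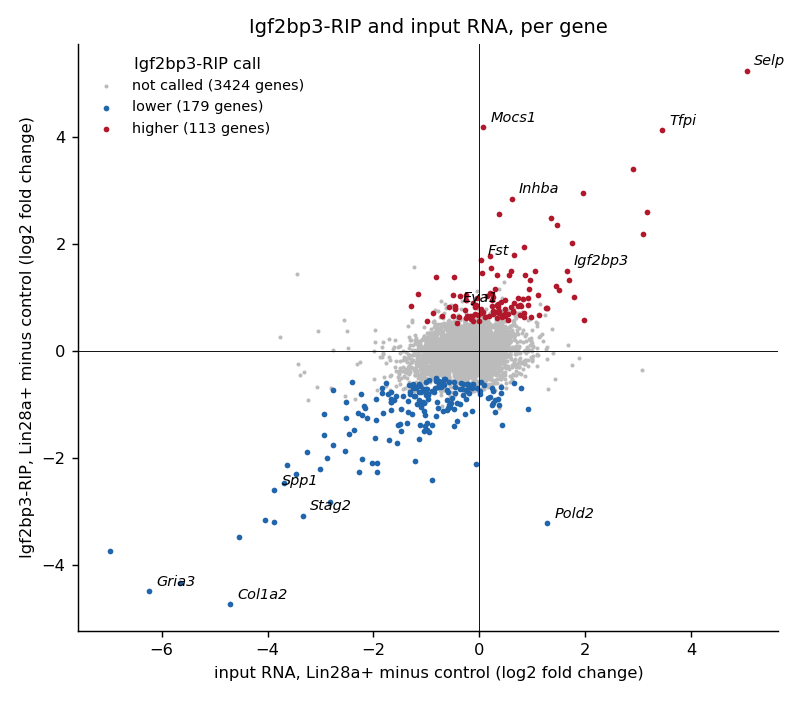
Log2 fold change, Lin28a+ minus control, in the input RNA (x axis) against the Igf2bp3-RIP (y axis) for 3716 genes, coloured by the RIP call. Lower genes extend along the diagonal to Col1a2, with Gria3 further to the left. Selp and Tfpi lie at the upper right, and Fst, Mocs1 and Pold2 lie away from the diagonal.

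The input RNA did not pass for 43 of 113 higher (38.1%) and 17 of 179 lower RIP genes (9.50%). Among genes not called in the RIP this share was 39.5%. Opposite input calls were found for 14.2% of the higher and 7.82% of the lower genes. Among genes not called in the RIP, 45.4% were lower and 15.1% higher in the input. In all, 60 called genes had no input call and 30 had the opposite one, which is not read as a result about them. Some of these pairs join a peak of one gene with the RNA of another, as for Mocs1 (peaks in Daam2), Pold2 (peak in Aebp1), Anxa3 (peaks in Fras1) and Prrc1, of whose 9 peaks 1 lies in Prrc1. Others have their peaks inside the gene. Fst rose by 1.69 ± 0.17 (SE) in the RIP with all 4 peaks higher, while its input was 12.2 and 13.2 CPM in control against 12.6 and 13.3 CPM in Lin28a+ cells. Foxp1, a forkhead repressor, rose by 0.95 with all 10 peaks higher and had an input change of 0.49 (edgeR adjusted p = 0.151). The Foxp1 input was low, at 3.56 and 3.70 CPM in control against 5.11 CPM in both Lin28a+ columns. Its input groups did not overlap, and its m6A-RIP was called higher with a log2 change of 0.34.

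Myod1 fell by 0.76 on the log2 scale in the RIP, and its input was 4651 and 4713 CPM in control against 4723 and 4728 CPM in Lin28a+ cells. Lmna, which encodes the nuclear lamins A and C, and Flnc, filamin C of the muscle Z-disc, fell by 0.87 and 0.69 in the RIP and rose by 0.20 and 0.25 in the input. In the other direction, Prkg2, a cGMP-dependent kinase, rose by 1.06 in the RIP with all 6 peaks higher and changed by -1.16 in the input, and Manea, a mannosidase of the Golgi, rose by 0.56 and changed by -0.98. Syn1, a synaptic vesicle protein, rose by 1.37 in the RIP and changed by -0.81 in the input. None of these 8 genes, from Fst to Syn1, was called in the RIP without the block.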

How the data were processed

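The deposited values are raw read counts per peak for the Igf2bp3-RIP, Lin28a-RIP and m6A-RIP libraries, with no scaling between libraries, and estimated counts per gene for the input, as the authors made them. The submitters' processing notes name HISAT2 2.0.4, MACS2 1.4.3, DESeq2 1.42.0 and the builds mm10 and GRCh38, and the study's methods name GRCh38, a human assembly, whereas identifiers and chromosomes are of mouse. The peak positions were read as mm10. Per the study's methods, reads were trimmed and aligned with HISAT2, and MACS2 was used for the m6A peaks. How the Igf2bp3 peaks were called and counted, and whether libraries were pooled for it, was not given in the sources used here.

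Peaks were tested as deposited and summed per gene. The main test was edgeR 4.0.16 (R 4.3.3), quasi-likelihood, with TMM factors, filterByExpr, the replicate number as a block and a Benjamini-Hochberg adjusted p under 0.05. All 19465 peaks and 4527 genes passed the filter. Unequal change among peaks was tested with diffSpliceDGE. Input values were rounded to whole numbers, and input and m6A-RIP, summed per gene, were fitted without a block, since their Lin28a+ columns carry no usable replicate number. Input columns of Lin28a+ cells bear m6A names and were assigned to the group only. With 2 libraries per group, errors rest on a spread shared among genes. CPM values use TMM factors, and log2(CPM + 1) has a pseudocount of 1 CPM. Library totals ran from 9215355 to 34142094 counts. RefSeq matched 99.97% of peaks and GenomicRanges 1.54.1 gave overlaps.

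The pairing by replicate number comes from the data and not from the labels: the difference between numbers correlated between groups at r = 0.703 over peaks. Named were the 8 genes and 4 peaks per direction with the smallest p whose groups did not overlap, up to 4 genes per list, 6 genes for peak use, the 4 genes per direction that differ most between replicate numbers, and the study's genes. A few genes that this rule names are not reported here. Further names were picked with their values in view. The comparison, the lists and the tests were chosen with earlier results of these data known. On simulated data with 200 changed features, edgeR called 80% of 100 peaks and 89% of 100 genes changed by 1 on the log2 scale in the blocked Igf2bp3-RIP fits (19465 peaks and 4527 genes), and 46% of 100 such genes in the test of peak use (3137 genes). Alternatives were no block, DESeq2, limma-voom (limma 3.58.1), other size factors, other filters and each library left out.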

Additional observations from a re-analysis of the deposited data

How the results depend on the processing

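Without the replicate block the test called 24 peaks, 13 genes and 2 genes for peak use, in place of 1988, 374 and 4. The block decides most calls, and the replicate numbers are not stated to pair the samples. With each library left out in turn and no block, since 3 libraries leave no residual degrees of freedom with it, the counts were 108 to 193 peaks, 39 to 73 genes and 0 to 3 genes for peak use, and the lone library was assumed to vary like the other group. DESeq2 with the block called 754 peaks. At least 100 counts in every library left 721 peaks, 245 genes and 1 gene for peak use. Limma-voom with the block called 7 genes for peak use, and with peaks inside their gene only, a choice made after seeing the data, 0 were called. DESeq2 called 3039 input genes in place of 6432. The other alternatives left these counts within 1.5 times. With total counts the genes split into 286 higher and 267 lower, and m6A-RIP genes into 2395 higher and 3766 lower in place of 3060 and 3179. The sign of 5 genes carried by replicate 1 peaks turned with the library left out, from -6.03 to 3.22 for Arhgef26, -6.77 to 3.78 for Itga9, -6.85 to 4.70 for Kpna1, -6.45 to 4.19 for Lrch3 and -6.89 to 4.88 for Slc25a33. It also turned for 4 genes that were not called, from -1.38 to 0.57 for Col12a1, -0.35 to 0.21 for Fbxw7, -0.95 to 0.64 for Kmt2d and -0.80 to 1.33 for Zfhx3. With peaks inside their gene only, the change was 0.30 for Gtf2a1, 0.33 for Pitpnb and 0.58 for Tmem39a in place of -0.10, -0.57 and -0.61. Of 151 called named genes, 7 changed sign under some alternative. Leaving out the 5 peaks carried by replicate 1 gave 1688 peaks and 341 genes, and this and leaving out H19 were also chosen after seeing the data. Causes were not tested.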
